A study of Bos taurus and Felis catus with 14 samples.

Results

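The mir-17 to mir-92 cluster and its paralogs were taken from the predicted microRNA loci of cow and cat. A locus was a member where its name held the family mir-17, mir-18, mir-19, mir-20, mir-25, mir-92, mir-93, mir-106 or mir-363, with any letter, copy number or mark for a new member, and where the name was not marked as antisense. This gave 29 of 1305 precursor loci in all, 16 of 810 in the cow and 13 of 495 in the cat. Behind the bovine loci stand 10 libraries from 3 steers, 1 for each of retina, brain stem, optic nerve, iris, penis, bone marrow, submandibular lymph node, corium of the feet, dental pulp and oral papillae. The feline set was made from 4 libraries, 2 of skin and 2 of muscle. The study names 3 cats as the source of its tissues, and which cat gave which library is not stated here. By the study's methods the steers were Angus and the cats were neutered male domestic short hair cats of adult age, and the labels name no genotype or treatment. The authors ran miRWoods, which scores stacks of aligned reads and then candidate hairpins, on all libraries of a species together. Each species therefore has 1 call set and no replicate. A locus has a precursor span, a strand, a name and 1 or 2 mature products, called 5p or 3p for the arm of the hairpin they come from. The deposited sets hold no read numbers, so the depth behind a locus cannot be read from them. The study's own supplementary read counts were not used here, and expression and tissue were not compared. A locus that was not called is not shown to be silent.

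Members of these families are processed from polycistronic transcripts, in which several hairpins lie within 1 primary RNA and are released in turn by Drosha and Dicer. The mir-17 to mir-92 cluster is known as an oncogenic microRNA cluster and is needed for the development of heart, lung and B cells. Its paralogs, mir-106a to mir-363 on the X chromosome and mir-106b to mir-25 in an intron of MCM7, arose from it by duplication and loss. The families fall into 4 groups by seed, the bases near the 5′ end of a mature microRNA that pair with target mRNAs. These are mir-17, mir-20, mir-93 and mir-106, then mir-18, then mir-19, and last mir-25, mir-92 and mir-363. In the first group and mir-18 the abundant strand comes as a rule from the 5p arm, and in the others from the 3p arm.

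The seeds are shown by the human counterparts, because the bovine and feline sequences were not analysed here. These are products of annotated human loci from the study's own human predictions, on the plus strand of human chromosome 13, apart from mir-92b on chromosome 1. They are written 5′ to 3′ with the seed, bases 2 to 8, in capitals.

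hsa-mir-17-5p: cAAAGTGCttacagtgcaggtag

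hsa-mir-20a-5p: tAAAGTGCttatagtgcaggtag

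hsa-mir-18a-5p: tAAGGTGCatctagtgcagatag

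hsa-mir-19a-3p: tGTGCAAAtctatgcaaaactga

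hsa-mir-19b-1-3p: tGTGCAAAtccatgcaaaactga

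hsa-mir-92a-1-3p: tATTGCACttgtcccggcctgt

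hsa-mir-92b-3p: tATTGCACtcgtcccggc

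The products of mir-17 and mir-20a had the same seed and differed at 2 of 23 positions, C1T and C12T, counted from 1 at the 5′ end. The product of mir-18a differed from that of mir-20a at 4 positions, A4G, T9A, A11C and G20A, and the first of these lies in the seed. The mir-19a and mir-19b products differed at 1 position, T11C, outside the seed. The mir-92b product was called with 18 nt, and over these it differed from that of mir-92a-1 at 1 position, T10C, with the same seed. No 2 of the products shown are identical, and the study's alignment kept only the positions that a read matches best. By the study's methods a read with several such positions is split evenly over them. Which loci share reads cannot be seen in the deposited positions.

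The 3 paralogous clusters were called in both species and in the same order of families wherever a family was called in both. Clusters were groups of at least 2 loci with gaps of at most 10 kb, on either strand. In the cow, 15 of 16 members lay in a cluster (93.8%, exact binomial 95% interval 69.8 to 99.8%), where 29.0% of all bovine loci and 36.4% of the other bovine loci with a family number did. In the cat, 13 of 13 did (100%, interval 75.3 to 100%), where 33.3% of all feline loci and 45.7% of the other feline loci with a family number did. The families were chosen as those of known clusters, so a high share in clusters follows from the choice and is no finding. These intervals cover counting error only, and members of 1 cluster are not independent. Products came from both arms at 16 of 16 bovine members (100%, interval 79.4 to 100%), against 72.5% of all bovine loci and 80.9% of the other bovine loci with a family number. In the cat both arms were seen at 9 of 13 members (69.2%, interval 38.6 to 90.9%), against 65.7% of all feline loci and 82.1% of the other feline loci with a family number, so that the members lay above the former share and below the latter, both within the interval. The 4 feline members with a single product were the whole X-linked cluster, and each of them had the 3p product alone. They belong to mir-19, mir-92 and mir-363, families in which the 3p strand is as a rule the abundant one. The other feline loci of mir-19 and mir-92, all in the mir-17 to mir-92 cluster, had products from both arms. So did the bovine X-linked loci of mir-19, mir-92 and mir-363. Why no 5p product was called at the 4 feline loci was not tested.

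By family, the cow had 1 locus of mir-17, 2 of mir-18, 3 of mir-19, 2 of mir-20, 1 of mir-25, 3 of mir-92, 1 of mir-93, 2 of mir-106 and 1 of mir-363. The cat had 1, 1, 4, 1, 1, 2, 1, 1 and 1 in the same order. The feline set thus had more mir-19 loci than the bovine set and fewer of mir-18, mir-20, mir-92 and mir-106. All bovine members had annotated names. In the cat, 4 of 13 names carried the mark for a new member, and they were 3 of the 4 mir-19 loci and 1 of the 2 mir-92 loci. The share of such names over all loci is not given here. These counts therefore describe the members alone. No feline locus was named mir-18b, mir-20b, mir-106a or mir-92b.

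**Figure D1:**
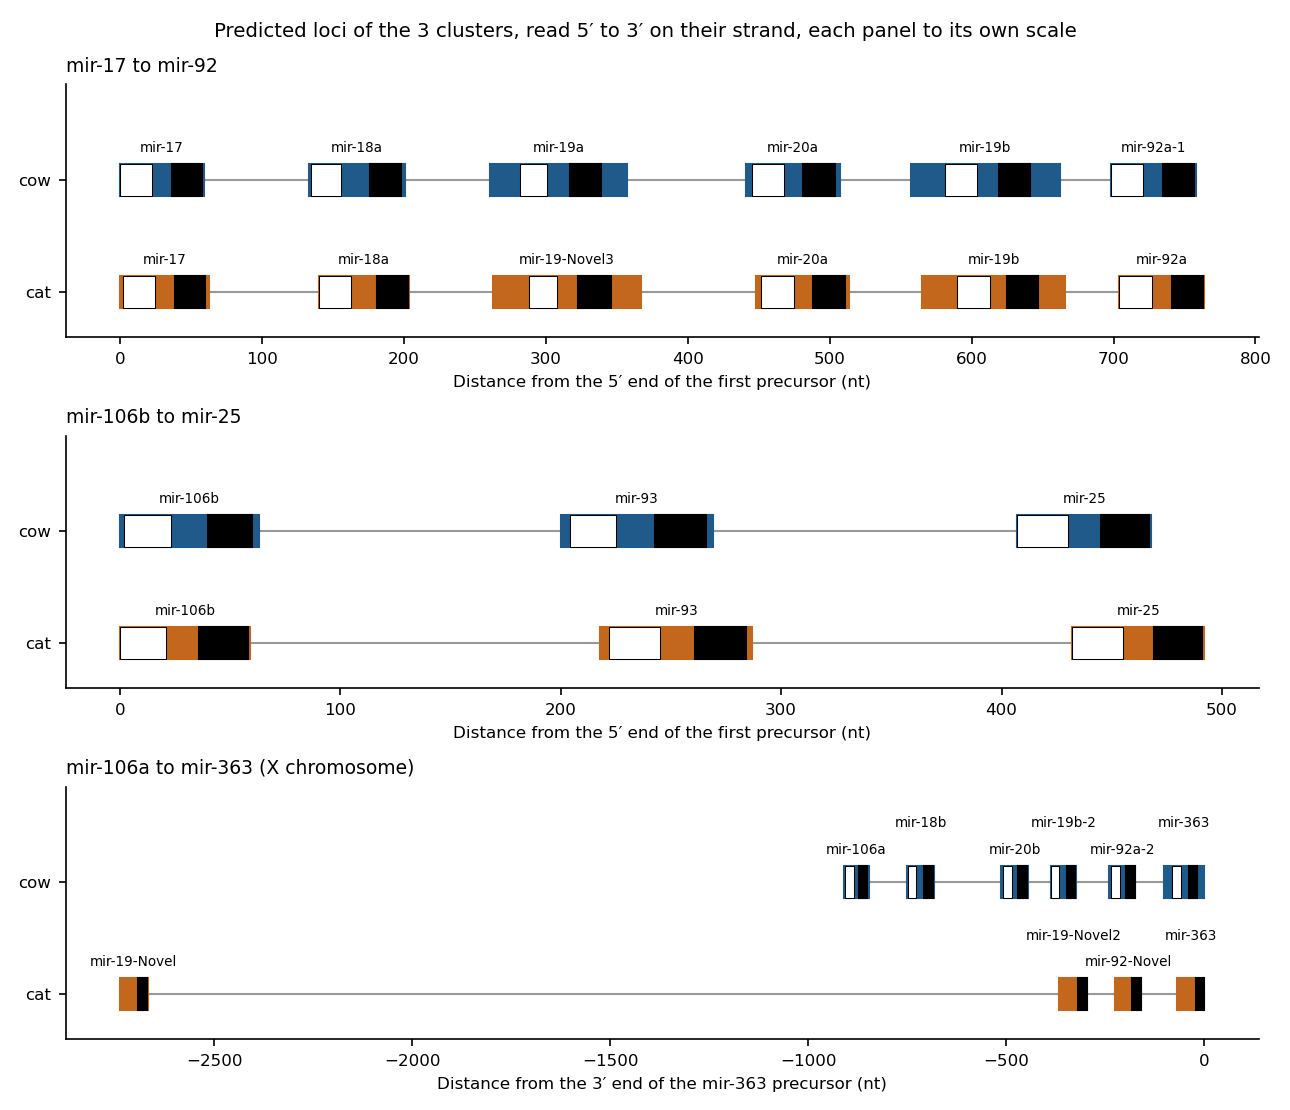
Maps of the 3 clusters in cow (blue) and cat (orange), read 5′ to 3′ on their strand, with distance in nt on the horizontal axis and each panel to its own scale. Boxes are precursors, white parts 5p products and black parts 3p products. The mir-17 to mir-92 maps are 758 nt long in the cow and 764 nt in the cat, and on the X chromosome 1 feline mir-19 locus stands 2303 nt from the next.

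The mir-17 to mir-92 cluster was complete in both species, with 6 loci in the order mir-17, mir-18a, a mir-19, mir-20a, mir-19b and a mir-92a. In the cow it lay on the plus strand of chromosome 12 from 66226567 to 66227324, a span of 758 nt. In the cat it lay on the plus strand of NC_018723.2 from 63885141 to 63885904, a span of 764 nt. Precursors covered 59.9% of the span in each species. The feline locus in the place of mir-19a was named fca-mir-19-Novel3, and its other neighbours carried plain names. Positions are those of the deposited sets, whose genome build the sources used here do not name.

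In the cow, bta-mir-17 extended from 66226567 to 66226625, bta-mir-18a from 66226700 to 66226767 and bta-mir-19a from 66226828 to 66226923. They were followed by bta-mir-20a from 66227008 to 66227073, bta-mir-19b from 66227124 to 66227228 and bta-mir-92a-1 from 66227265 to 66227324. The mir-19 hairpins were the long ones of this row. In the cat, fca-mir-17 extended from 63885141 to 63885203, fca-mir-18a from 63885281 to 63885344 and fca-mir-19-Novel3 from 63885404 to 63885507. Then came fca-mir-20a from 63885589 to 63885654, fca-mir-19b from 63885706 to 63885806 and fca-mir-92a from 63885845 to 63885904.

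The spacing inside this cluster differed by a few bases between the species. Counted as bases between precursors, the 5 gaps were 74, 60, 84, 50 and 36 nt in the cow and 77, 59, 81, 51 and 38 nt in the cat, from mir-17 to mir-92a. The gaps differed by 1 to 3 nt with a median of 2 nt. The gap before mir-92a was the shortest in both species and the gap between the mir-19a position and mir-20a the longest. A precursor span is the program's estimate of a hairpin, so distances were also taken between the 5′ ends of the 3p products, which are set by stacks of reads. At mir-17, mir-18a and mir-20a the 3p product is as a rule the less abundant strand. The distances between 3p products were 139, 141, 164, 138 and 116 nt in the cow and 142, 142, 165, 137 and 116 nt in the cat. On this measure the differences were 0 to 3 nt with a median of 1 nt. Between the 5′ ends of the precursors they were wider, 1 to 7 nt with a median of 5 nt. Added up from mir-17, the 3p product of mir-92a began 698 nt downstream in the cow and 702 nt downstream in the cat, and none of the 6 positions differed by more than 5 nt.

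The mir-106b to mir-25 cluster was also complete in both species, with mir-106b, mir-93 and mir-25 in this order. In the cow it lay on the plus strand of chromosome 25 from 36892055 to 36892522, a span of 468 nt. In the cat it lay on the minus strand of chromosome E3 from 7268687 to 7269178, a span of 492 nt. The bovine loci were bta-mir-106b from 36892055 to 36892117, bta-mir-93 from 36892255 to 36892323 and bta-mir-25 from 36892462 to 36892522. The feline loci, read from the 5′ end, were fca-mir-106b from 7269120 to 7269178, fca-mir-93 from 7268892 to 7268960 and fca-mir-25 from 7268687 to 7268746. All had plain names and products from both arms.

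The hairpins of this cluster were set further apart than those of the mir-17 to mir-92 cluster in either species. The gaps were 137 and 138 nt in the cow and 159 and 145 nt in the cat. From 3p product to 3p product the distances were 203 and 202 nt in the cow and 225 and 208 nt in the cat. The step from mir-106b to mir-93 was thus 22 nt longer in the cat by both measures. Between precursor 5′ ends it was 200 nt in the cow and 218 nt in the cat, a difference of 18 nt. The step from mir-93 to mir-25 was 7 nt longer by the gap and 6 nt longer between 3p products. The bovine steps were nearly equal to each other and the feline steps were not.

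The X-linked cluster differed most between the call sets. In the cow it had 6 loci on the minus strand from 17917688 to 17918597, a span of 910 nt, in the order mir-106a, mir-18b, mir-20b, mir-19b-2, mir-92a-2 and mir-363. In the cat it had 4 loci on the minus strand of the X chromosome from 110046937 to 110049675, a span of 2739 nt. Read from the 5′ end, these were a mir-19 locus named as a new member (from here on the outer mir-19 locus), fca-mir-19-Novel2, a mir-92 locus named as a new member and fca-mir-363. No feline locus was called in the places of mir-106a, mir-18b and mir-20b, and the feline cluster began with 2 mir-19 loci where the bovine cluster had 1. The mir-19 locus beside mir-92 was taken as the counterpart of bta-mir-19b-2.

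The bovine loci were bta-mir-106a from 17918536 to 17918597, bta-mir-18b from 17918370 to 17918437, bta-mir-20b from 17918133 to 17918200, bta-mir-19b-2 from 17918013 to 17918074, bta-mir-92a-2 from 17917862 to 17917928 and bta-mir-363 from 17917688 to 17917790. The feline loci were the outer mir-19 locus from 110049606 to 110049675, fca-mir-19-Novel2 from 110047233 to 110047302, the mir-92 locus from 110047096 to 110047162 and fca-mir-363 from 110046937 to 110047004. Both sets run toward lower positions, since the clusters lie on the minus strand.

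The 3 loci at the 3′ end stood at like distances in the 2 species. Upstream of the 3p product of mir-363, that of mir-92 began at 158 nt in the cow and 161 nt in the cat. The mir-19 product next to it began at 309 nt in the cow and 297 nt in the cat. Step by step, mir-19 to mir-92 was 151 nt in the cow and 136 nt in the cat, and mir-92 to mir-363 was 158 and 161 nt. The corresponding gaps were 84 and 71 nt in the cow and 70 and 91 nt in the cat. One gap was shorter in the cat and the other longer, and the gaps differed by 14 and 20 nt where the distances between 3p products differed by 15 and 3 nt.

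Further upstream the call sets parted. In the cow the 3p products of mir-20b, mir-18b and mir-106a began 432, 668 and 834 nt upstream of that of mir-363. In the cat the next product, that of the outer mir-19 locus, began 2670 nt upstream. It therefore lay beyond the stretch that holds the bovine cluster. The 2303 nt between the outer mir-19 locus and fca-mir-19-Novel2 held no predicted locus, on either strand. With clusters defined by gaps of at most 1 kb, the outer mir-19 locus was no longer in the cluster and 12 of the 13 feline members were.

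The pair of feline mir-19 loci had the same layout. Both precursors were 70 nt long, both gave a 3p product of 22 nt and no 5p product, and in both the product ended 1 nt before the end of the precursor. The 3p products lay from 110049607 to 110049628 and from 110047234 to 110047255. Whether the mature sequences are the same could not be read from the positions, and whether reads were shared between these loci and fca-mir-19b was not tested.

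The bovine spacing could also be compared between the paralogous clusters, where a pair of families follows in both. From mir-20 to mir-19, the distance between 3p products was 138 nt in the mir-17 to mir-92 cluster (mir-20a to mir-19b) and 123 nt on the X chromosome (mir-20b to mir-19b-2). From mir-19 to mir-92 it was 116 and 151 nt in the cow. In the cat the same step was 116 nt in the mir-17 to mir-92 cluster and 136 nt on the X chromosome. For this step the same cluster in the other species was the closer match, 116 against 116 nt and 151 against 136 nt.

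Over all 9 spacings that could be matched between cow and cat, the median absolute difference was 3 nt by the gap and 3 nt between 3p products, with the largest at 22 nt by either measure. Neighbouring members had a median gap of 79 nt over 12 bovine pairs and of 79 nt over 10 feline pairs. Over all neighbouring loci within clusters, the median gap was 378 nt in 158 bovine pairs and 335.5 nt in 108 feline pairs. The members' gaps ranged from 36 nt (bta-mir-19b to bta-mir-92a-1) to 169 nt (bta-mir-18b to bta-mir-20b) in the cow. In the cat they ranged from 38 nt (fca-mir-19b to fca-mir-92a) to the 2303 nt on the X chromosome. Each spacing is a single value with no replicate, so these differences carry no error.

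**Figure D2:**
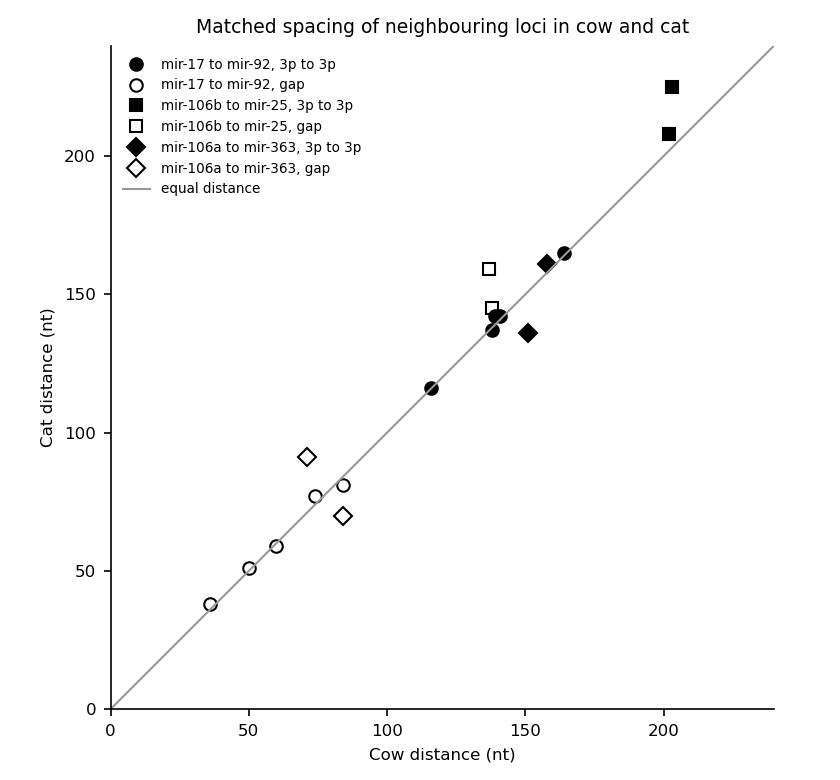
Cow distance (horizontal axis, nt) against cat distance (vertical axis, nt) for the 9 matched neighbouring pairs, as the gap between precursors (open) and between the 5′ ends of 3p products (filled). Circles are the mir-17 to mir-92 cluster, squares mir-106b to mir-25 and diamonds the X-linked cluster, and the line marks equal distance. The circles lie within 3 nt of the line, and the point farthest from it on either measure is mir-106b to mir-93, 22 nt longer in the cat.

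Precursor length was typical of the sets as a whole. The median was 66.5 nt over 16 bovine members and 66 nt over all 810 bovine loci, and it was 67 nt over 13 feline members and 65 nt over all 495 feline loci. The members ranged from 59 nt (bta-mir-17) to 105 nt (bta-mir-19b) in the cow and from 59 nt (fca-mir-106b) to 104 nt (fca-mir-19-Novel3) in the cat. The families other than mir-19 and mir-363 stayed between 59 and 69 nt in both species.

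Long precursors were mostly those of mir-19. In the mir-17 to mir-92 cluster, bta-mir-19a had 96 nt and bta-mir-19b had 105 nt, and their feline counterparts fca-mir-19-Novel3 and fca-mir-19b had 104 and 101 nt. The mir-19 loci of the X chromosome were shorter, with 62 nt for bta-mir-19b-2 and 70 nt for each of the 2 feline ones. The remaining long precursor was bta-mir-363 with 103 nt, where fca-mir-363 had 68 nt. Precursors of at least 90 nt were 3 of 16 bovine members (18.8%) and 2 of 13 feline members (15.4%), beside 12.2% of all bovine and 11.1% of all feline loci.

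The additional length lay outside the mature products. In the long bovine and feline precursors the hairpin ran on for 18 to 25 nt on each side of the product pair. In the other members with both arms, 13 bovine and 7 feline, it ended within 5 nt of the products on both sides. The span from the first base of the 5p product to the last base of the 3p product was 57 nt for bta-mir-19a, 60 nt for bta-mir-19b and 63 nt for bta-mir-363. These spans lie within the range of the short precursors. A precursor that exceeded its product span by more than 30 nt was found at 12.9% of the 587 bovine loci and 8.62% of the 325 feline loci with both arms.

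**Figure D3:**
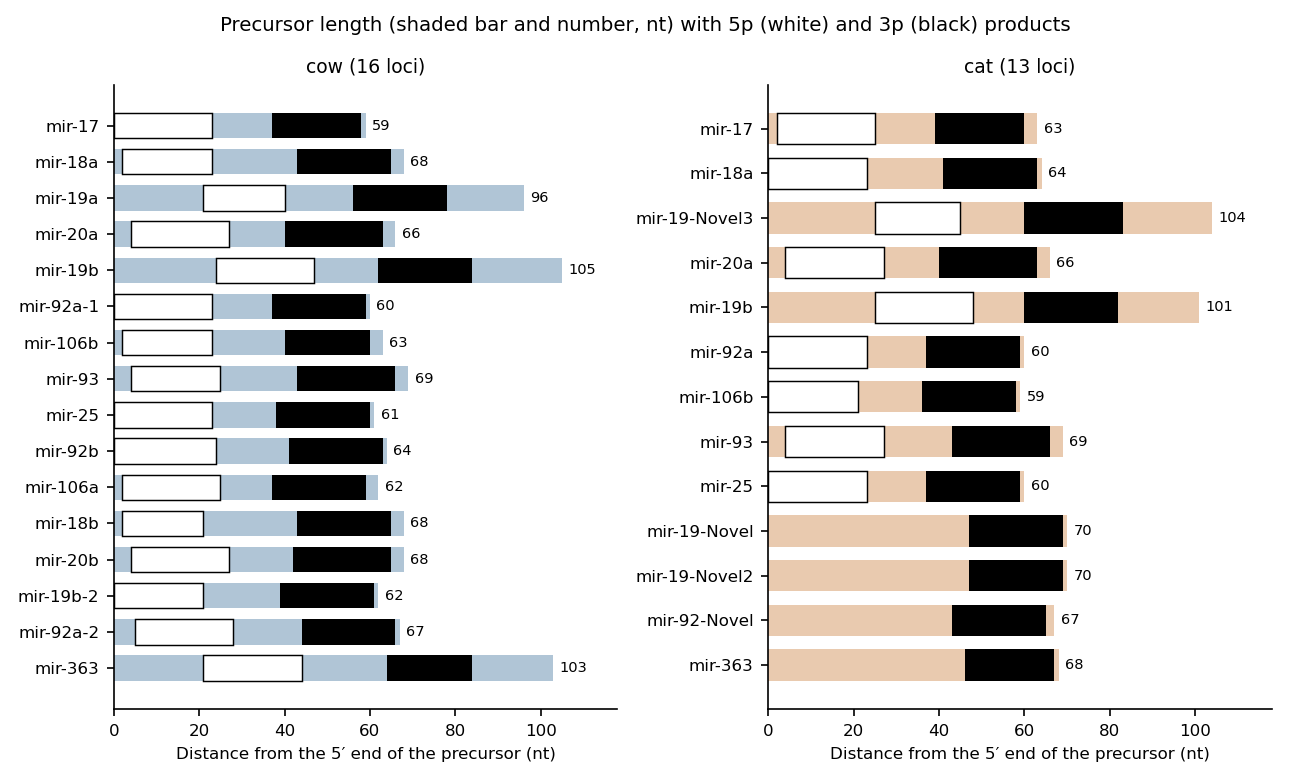
Precursors of the 16 bovine and 13 feline members from their 5′ end (horizontal axis, nt), with the length in nt at the end of each shaded bar and the 5p (white) and 3p (black) products in place. The mir-19 precursors of the mir-17 to mir-92 cluster and bovine mir-363 extend to 96 to 105 nt, and the 4 feline X-linked loci have a 3p product alone.

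Of the 12 loci that could be matched between cow and cat, 4 had precursors of the same length, and the median absolute difference was 4 nt. The same length was found for mir-20a (66 nt), for mir-92a of the mir-17 to mir-92 cluster (60 nt), for mir-93 (69 nt) and for mir-92 of the X chromosome (67 nt). The largest difference was 35 nt at mir-363. The product spans were closer, with 6 of 9 equal and none more than 3 nt apart.

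The 3p products of the members had a narrower range of lengths than the 5p products in each species. All 3p products of the members were 20 to 23 nt, with a median of 22 nt in each species. A length of 22 nt was found at 10 of 16 in the cow and 8 of 13 in the cat. Among all loci it was found at 381 of 736 bovine and 210 of 433 feline 3p products, and the median was also 22 nt. The 5p products were 19 to 24 nt in the cow and 20 to 23 nt in the cat, with a median of 23 nt in each, while the median 5p product over all loci had 22 nt in each species. A 5p product of 23 nt was found at 9 of 16 bovine and 7 of 9 feline members with one, and a 5p product of 22 nt at none. Over all loci, 144 of 661 bovine and 80 of 387 feline 5p products had 23 nt, and 292 and 185 had 22 nt.

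By seed group, the 10 loci of mir-17, mir-20, mir-93 and mir-106 had 5p products of 21 to 23 nt, 7 of them with 23 nt. The 5p products with 21 nt were those of bta-mir-106b, bta-mir-93 and fca-mir-106b, all in the mir-106b to mir-25 cluster. For mir-18, a close relative of this group, the 5p product had 21 nt at bta-mir-18a, 19 nt at bta-mir-18b and 23 nt at fca-mir-18a, while the 3p product had 22 nt at each. In mir-19, where the 3p product is as a rule the abundant one, the 7 loci had 3p products of 22 nt, with 23 nt at fca-mir-19-Novel3 the exception. The 5p products of mir-19 varied more, with 19 nt at bta-mir-19a, 20 nt at fca-mir-19-Novel3, 21 nt at bta-mir-19b-2 and 23 nt at bta-mir-19b and fca-mir-19b. In mir-25, mir-92 and mir-363, 7 of 9 3p products had 22 nt, and the others were bta-mir-363 with 20 nt and fca-mir-363 with 21 nt.

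The distance from the 5′ end of the 5p product to the 5′ end of the 3p product was taken as the arm spacing. It rests on the ends of the called products, and sites of cutting were not measured. It was 35 to 43 nt over the 16 bovine members, with a median of 38 nt, and 35 to 41 nt over the 9 feline members with both arms, with a median of 37 nt. Over all loci with both arms the median was 38 nt in each species. Of the matched loci, 6 of 9 had the same value in both species. The mir-18 loci had 41 nt at bta-mir-18a, bta-mir-18b and fca-mir-18a, that is, in both clusters and both species. It was 37 nt for mir-17, 36 nt for mir-20a, 39 nt for mir-93 and 37 nt for the mir-92a of the mir-17 to mir-92 cluster in both species.

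The remaining matched loci differed by 1 to 3 nt. These were mir-19b with 38 nt in the cow and 35 nt in the cat, mir-106b with 38 and 36 nt, and mir-25 with 38 and 37 nt. In each of the 3 the bovine value was the larger. At mir-106b the product span was 58 nt in both species, and the 3p product had 20 nt in the cow and 22 nt in the cat. Among the bovine paralogs, mir-92a-1 had 37 nt, mir-92a-2 had 39 nt and mir-92b had 41 nt, and their relatives mir-25 and mir-363 had 38 and 43 nt. The value of bta-mir-363 was the highest of all members.

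**Figure D4:**
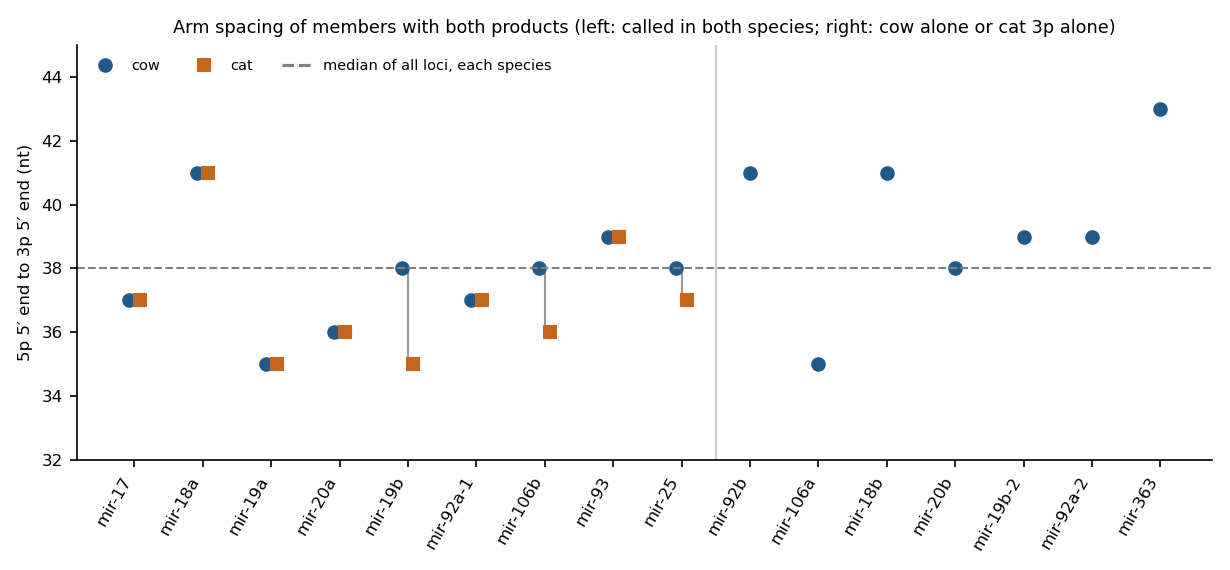
Arm spacing in nt (vertical axis, not starting at 0), from the 5′ end of the 5p product to that of the 3p product, for members with both products in cow (circles) and cat (squares). The dashed line is the median of all loci, 38 nt in each species. The 9 loci left of the divider have both arms in both species and coincide at 6, and the 3 mir-18 values all stand at 41 nt.

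The member outside any cluster was bta-mir-92b, on the minus strand of chromosome 3 from 15480738 to 15480801. It had products from both arms, a 5p product of 24 nt, the longest among the members, and a 3p product of 22 nt. The nearest predicted locus, bta-mir-190b, was 893812 nt away. This locus is not part of the 3 duplicated clusters in other mammals either, although it carries the mir-92 seed.

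Within 10 kb, the loci around the members were other members in all cases but 1. On the minus strand of chromosome 25, as-bta-mir-106b from 36892054 to 36892139 lay opposite bta-mir-106b and covered all of its 63 nt. Its only product was a 3p product of 23 nt from 36892055 to 36892077, and 21 nt of it lay opposite the 5p product of bta-mir-106b. No feline locus was named as antisense to a member. Further out on the X chromosome, the nearest locus in both species was a mir-450b on the same strand, the first of a group of 6 loci that ends with mir-424. It lay 260319 nt from the cluster in the cow and 263859 nt in the cat. The other clusters stood farther from any locus. In the cow, bta-mir-2284s lay 12975547 nt from the mir-17 to mir-92 cluster and bta-mir-2388 lay 1591856 nt from mir-106b to mir-25. In the cat, fca-Novel109 lay 5834564 nt from the former and fca-Novel160 lay 459353 nt from the latter.

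All 16 bovine member names matched 1 gene each among the RefSeq genes of ARS-UCD2.0, and the genes stood in the same order there. This bovine assembly was not matched to that of the deposited positions, whose build is not named. The RefSeq genes measured 68 to 96 nt, and their median was 79 nt. The predicted span was shorter than the RefSeq gene at 13 of 16 members and longer at 3, which were again bta-mir-19a, bta-mir-19b and bta-mir-363. For bta-mir-363 the predicted 103 nt compare with 74 nt in RefSeq. The distances between the midpoints of neighbours differed between the deposited set and RefSeq by a median of 1.25 nt over 12 pairs and by 10 nt at most, from mir-19b-2 to mir-92a-2.

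The gene table also gave the setting of each cluster in the cow. MIR106B, MIR93 and MIR25 lay inside MCM7, which encodes a subunit of the replicative helicase, and the nearest other protein-coding genes were AP4M1 and COPS6. MIR17 to MIR92A-1 lay in no protein-coding gene, and the nearest one was GPC5, a glypican gene, 64807 nt beyond MIR92A-1. The X-linked cluster lay between GPC3, another glypican gene, 146326 nt beyond MIR363, and CCDC160, 44305 nt before MIR106A. Both of these clusters thus had a glypican gene as the nearest coding neighbour beyond their mir-92 or mir-363 end. MIR92B lay between THBS3, at 279 nt, and MUC1, at 1929 nt. The setting of the feline clusters was not analysed here.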

How the data were processed

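Small RNA of 10 bovine tissues and of feline skin and muscle was sequenced. The authors trimmed the reads with cutadapt 1.15 (per the labels), aligned them with Bowtie, leaving out reads with more than 10 genome positions, and ran miRWoods once per species over the combined libraries. The deposited values are genome positions counted from 1, with strand and name, and their score field is blank. No source used here names the build, and sequences were not read by position.

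Members were the loci whose name holds 1 of the 9 families. Every member was named, with its nearest predicted neighbours, the non-members among them within 10 kb by name, and, in RefSeq (ARS-UCD2.0), the host and nearest protein-coding genes, of which no position is printed. Loci were read 5′ to 3′ on their strand and matched by family in order, and a spacing was matched where its loci were neighbours in both species. The members and lists were chosen with earlier results of these data known, and no test was made. Shares carry exact (Clopper-Pearson) 95% intervals. Alternatives changed the cluster distance (1, 5 and 50 kb), the strand, the products counted and the measures of length and distance. Python 3.11.15, scipy 1.17.1 and matplotlib 3.10.9 were used. Clustering and matching were tested on simulated lists, and 50 of 50 were recovered. The simulated clusters for matching held no repeated family and no extra feline locus. The matching of the repeated mir-19 loci was therefore not covered.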

Additional observations from a re-analysis of the deposited data

How the results depend on the processing

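Of 26 alternative values for 13 results, 16 stayed within 1.5 times the count or within 1 nt of the length reported, and 10 moved further. Counts of members, of members in clusters and of members with both arms were among those that stayed. Without products outside 20 to 24 nt, 14 of the 16 bovine members kept both arms. Those that moved are medians of lengths and distances, where the alternative measures another quantity. The median gap of 79 nt between neighbouring members became 143.5 nt in the cow and 149 nt in the cat between precursor 5′ ends, and 154.5 and 151.5 nt between 5′ ends of 3p products. Precursor length was 71.3 nt in the cow and 70.8 nt in the cat as a mean, and the median product span was 60.5 and 59 nt. The median cow-cat difference of matched spacing was 6 nt between precursor 5′ ends, and that of length was 0 nt for product spans. No paired analysis was possible because each species has 1 call set and no test was made. The deposited sets hold no read numbers, so how depth limits which loci were called was not measured here, and the feline set rests on fewer libraries and tissues than the bovine set.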

Other observations

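Other families carry a seed of these groups or a close one, and they were looked up after the members' values were seen. The mir-32 family, which shares the seed of mir-92, had 1 locus in each species and was in no cluster with a member. In the cow, bta-mir-32 lay on the minus strand of chromosome 8 from 100305160 to 100305225, with a precursor of 66 nt. In the cat, the mir-32 locus, named as a new member, lay on the minus strand of NC_018735.2 from 69769916 to 69769978, with a precursor of 63 nt. Both had products from both arms at an arm spacing of 41 nt, which is also the value of bta-mir-92b and of the mir-18 loci, whose seed differs. The bovine loci of mir-25, mir-92 and mir-363 ranged from 37 to 43 nt. The mir-302 family, known from embryonic stem cells and with a seed close to that of mir-17, had 3 loci in the cow and 0 in the cat. The bovine loci were bta-mir-302b, bta-mir-302a and bta-mir-302d on the plus strand of chromosome 6, each with products from both arms. No locus of either species was named mir-367.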
